A study of Mus musculus with 9 samples.

Results

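The complement genes of mouse ovarian grafts were described here at 8 members: C1qa, C1qb, C1qc, C2, C3, C4b, Cfb and Serping1. The members are a list of genes, and each was to be read at a probe set, a group of short probes on the array, that the array annotation gives to that gene alone. Where a gene had several such probe sets, the one with the highest mean over all arrays was used. Of the 8 members, 6 had a probe set of their own, out of 18194 genes with one on this array. C4b has only a probe set shared with C4a (1418021_at), and the probe set read for C3 (1423954_at) has no entry in the annotation and is paired in the study's tables with C3 and LOC100048759. These probe sets were therefore described beside the 6 members but left out of the counts of members. Likewise, the Cfb probe set (1417314_at) is given to Cfb alone in the annotation but to C2 and Cfb together in the study's tables.

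The study followed fetal ovaries grafted under the kidney capsule of male hosts, and the comparisons ask how expression in the grafts differs from that in the ovaries before grafting. The grafts were XX ovaries of stage E13.0 that had spent between 4 and 20 days in XY BALB/c nu/nu nude mice, and ungrafted XX ovaries of the same stage served as day 0. All mothers, those of the day 0 ovaries included, had been given busulfan, an alkylating drug that depletes germ cells, and the labels name the strain ICR, whereas the study's methods name C57BL/6 and ICR. Days 0, 10 and 20 post-transplantation were measured in duplicate and days 4, 7 and 15 once, which gives 9 arrays, and the RNA of a graft array was pooled from approximately 10 grafts. From which litters and hosts the tissue of a pool came is not stated, and a p-value therefore covers no more than the spread among these pools. Nude mice lack a thymus and mature T cells but still have macrophages and other myeloid cells, and an XY host differs from the XX graft in its Y-linked genes.

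Complement is a set of plasma and cell surface proteins that tag cells and debris for uptake by phagocytes and can form a pore in membranes. C1q, built from the products of C1qa, C1qb and C1qc, recognises antibody or dying cells. It starts the classical pathway through the proteases C1r and C1s, of which C1s cleaves C4 and C2. C3 is the component at which all pathways meet, Cfb supplies the protease of the alternative pathway, and Serping1 encodes the C1 inhibitor, which blocks C1r and C1s. Liver makes most of the plasma components, whereas C1q is known as a product of macrophages and dendritic cells.

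In the RefSeq gene table, C1qb, C1qc and C1qa follow one another on chromosome 4 with 0 other protein-coding genes between them, and C2 lies beside Cfb on chromosome 17, which also holds C4b and C3. Promoter sequences from RefSeq (GRCm38.p6) were at hand for 3 of the 8 members, C1qb, C1qc and C3. They are shown because the C1q genes moved together over the arrays and because the C3 probe set had the largest differences from day 0 among the 8 probe sets. Each run gives the 250 bases before the transcript start that the promoter table uses, 5′ to 3′ on the gene's strand, in lower case with motif matches in capitals. For C1qc that start lies inside the gene as the gene table bounds it, so that 22 bases of its run are within the gene, against 0 for C1qb and C3. The C1qb run is chr4:136886201-136886450, the C1qc run is chr4:136892915-136893164 and the C3 run is chr17:57228137-57228386, all on the minus strand.
C1qb: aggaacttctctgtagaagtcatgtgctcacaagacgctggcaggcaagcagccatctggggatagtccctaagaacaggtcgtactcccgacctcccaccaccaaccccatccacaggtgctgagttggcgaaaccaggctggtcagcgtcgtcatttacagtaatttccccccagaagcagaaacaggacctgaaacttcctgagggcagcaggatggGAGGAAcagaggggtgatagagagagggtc
C1qc: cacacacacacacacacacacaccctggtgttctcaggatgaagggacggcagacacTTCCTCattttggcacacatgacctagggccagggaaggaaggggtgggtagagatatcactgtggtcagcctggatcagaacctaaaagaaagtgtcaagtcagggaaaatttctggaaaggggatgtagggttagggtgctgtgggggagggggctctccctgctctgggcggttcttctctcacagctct
C3: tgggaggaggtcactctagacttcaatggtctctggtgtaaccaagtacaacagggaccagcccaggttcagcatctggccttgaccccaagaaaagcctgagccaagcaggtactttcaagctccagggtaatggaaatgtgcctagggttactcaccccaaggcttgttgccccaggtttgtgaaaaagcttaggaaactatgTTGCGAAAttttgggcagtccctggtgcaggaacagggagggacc
The core motifs of 3 kinds of factor were searched on both strands, and their matches in these runs do not overlap. The letters GAGGAA, a core of PU.1 and other ETS factors of myeloid cells, occurred once in C1qb (30 to 25 bases before the start, on the gene's strand) and once in C1qc (193 to 188 bases before it, on the other strand), and they occur in 23.3% of 32841 promoter windows of this length. The letters TTGCNNAA, a core of C/EBP factors, occurred once in C3 (45 to 38 bases before the start) and occur in 9.57% of windows. The letters GAAANNGAA, a core of interferon response elements, were in none of the 3 runs and occur in 7.13% of windows. Such matches describe the letters only.

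All values are log2 intensities, and the array medians lay between 6.49 and 6.63. Over all probe sets, duplicate arrays differed with a standard deviation of 0.45 on day 0, 0.34 on day 10 and 0.70 on day 20. The 2 arrays of day 20 stand apart from each other. Genes of the kidney proximal tubule were 5.86 above day 0 in the median on day 20 replicate 1, against -0.18 on replicate 2, and day 20 differences are therefore given also without replicate 1 where that changes a call or moves the fold by over 1.5 times. Of the 8 ovarian somatic genes listed, Wnt4, Gata4, Nr5a1, Fst and Emx2 fell by day 20 (median difference of the list from day 0 -1.92), while Foxl2 (11.44 to 12.98), Wt1 (10.51 to 12.42) and Amhr2 (11.88 to 13.41) passed on no day, and the lowest value of any of the 8 was 7.53, on day 20 replicate 1. Over the whole array, 1396 of 45101 probe sets were called lower on day 20. In bulk samples such as these, fewer cells of a type and less RNA per cell cannot be told apart.

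Each complement probe set was higher on every one of the 7 graft arrays than on both day 0 arrays. How many of all probe sets did so was not counted, here and for the gene lists below. A moderated test (limma over all 45101 probe sets, with Benjamini-Hochberg adjustment) called a probe set at an adjusted p under 0.05 and a difference over 2-fold. Of the 6 members, 0 passed on day 4, 1 rose by day 7 (Serping1), 2 rose by day 10 (C1qa and Serping1), 0 passed on day 15 and 5 rose by day 20 (C1qa, C1qb, C1qc, Cfb and Serping1), and none fell. The share of all probe sets called higher was 0.774% on day 4, 1.28% on day 7, 2.87% on day 10, 2.0% on day 15 and 4.52% on day 20. At an unadjusted p under 0.05, 5 members passed on day 4 (4505 of all probe sets) and 2 on day 15 (7858 of all). The median log2 difference of the 6 members from day 0 was 2.97 on day 4, 2.84 on day 7, 1.63 on day 10, 1.31 on day 15 and 2.56 on day 20, beside -0.06, -0.08, -0.09, -0.09 and -0.11 over all probe sets. All of these comparisons share the day 0 arrays, and a day with a single array was taken to vary like the days with duplicates.

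These calls lie close to the threshold and depend on single arrays. Without day 0 replicate 1 or without day 0 replicate 2, 0 of the 6 members passed on day 20, and without either day 10 array only Serping1 did, although its fold change and those of the others then stay the same and only the estimate of the spread differs. Without day 20 replicate 1, the array with the kidney genes, C1qa, Cfb and Serping1 still rose by day 20. Over all probe sets, 621, 673, 1084 and 2116 were called higher on day 20 under these settings, against 2037 with all arrays. Likewise, the day 7 and day 10 calls of members ended when any 1 of the day 0 and day 10 arrays was left out. Far fewer of all probe sets were called higher on these days in the same settings. The day 10 difference of C1qa was then between 2.07 and 2.71, and that of Serping1 between 1.51 and 1.56. Without either day 20 array, whose duplicates differ most, 3 members passed on day 4, 4 on day 7, 3 on day 10 and 1 on day 15, with 642, 1001, 1774 and 1564 of all probe sets called higher.

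**Figure D1:**
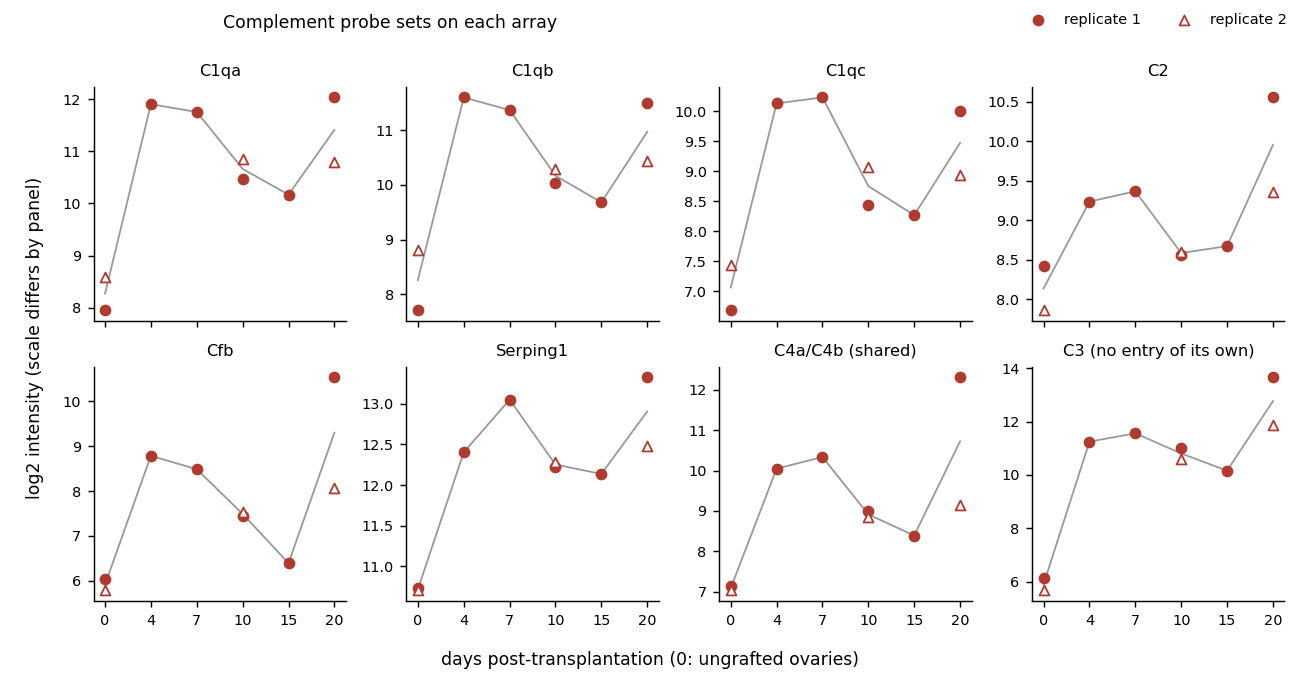
Log2 intensity of the 8 complement probe sets (vertical axis, own scale in each panel) against days post-transplantation, with each array as a point (circles replicate 1, triangles replicate 2) and grey lines through the day means. The points of days 4 and 7 stand above those of days 10 and 15 in each panel, and on day 20 the circle stands above the triangle, for Cfb at 10.54 and 8.06.

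C1qa (1417381_at) encodes the A chain of C1q. It measured 7.95 and 8.59 on day 0, 11.90 on day 4, 11.75 on day 7, 10.47 and 10.85 on day 10, 10.17 on day 15 and 12.03 and 10.79 on day 20. The grafts of days 4 and 7 and day 20 replicate 1 were highest, those of days 10 and 15 and day 20 replicate 2 lay between 10.17 and 10.85, and the day 0 ovaries were lowest without overlap. The log2 difference from day 0 was 2.39 (standard error 0.45, 5.25-fold, adjusted p = 0.0486) on day 10 and 3.14 (standard error 0.45, 8.80-fold, adjusted p = 0.0162) on day 20. Without day 20 replicate 1 the day 20 difference of C1qa was 2.51, 5.71-fold (adjusted p = 0.0281). On days 4 and 7 it was larger, at 3.63 and 3.48, but rested on 1 array each and did not pass (adjusted p = 0.0632 and 0.0527).

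C1qb (1417063_at), which encodes the B chain, measured 7.71 and 8.81 on day 0, 11.60 on day 4, 11.37 on day 7, 10.04 and 10.30 on day 10, 9.68 on day 15 and 11.51 and 10.43 on day 20. C1qc (1449401_at), which encodes the C chain, measured 6.68 and 7.44 on day 0, 10.13 on day 4, 10.23 on day 7, 8.43 and 9.08 on day 10, 8.27 on day 15 and 10.01 and 8.94 on day 20. In both genes the day means of days 4 and 7 were at the top, day 20 came next and day 15 was the lowest of the grafts, and neither gene overlapped between any graft day and day 0. The log2 difference between day 20 and day 0 was 2.71 for C1qb (standard error 0.48, adjusted p = 0.0283) and 2.41 for C1qc (standard error 0.45, adjusted p = 0.0326). When day 20 replicate 1 was left out, it was 2.18 for C1qb (adjusted p = 0.0736) and 1.88 for C1qc (adjusted p = 0.0771), and both calls ended. On day 10 the differences of 1.91 and 1.69 did not pass (adjusted p = 0.0983 and 0.112). The other probe sets of C1qb gave 3.14 and 2.77 on day 20 and passed as well. Over the 9 arrays, the values of the C1q genes correlated with one another at Pearson's r of 0.98 to 0.99. The day 0 arrays differed in the same way in all 3 genes, with replicate 2 higher by 0.64 to 1.11.

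C2 (1441912_x_at) encodes the protease subunit of the classical C3 convertase. It measured 8.42 and 7.86 on day 0, 9.24 on day 4, 9.37 on day 7, 8.57 and 8.60 on day 10, 8.67 on day 15 and 10.56 and 9.35 on day 20. The grafts of days 10 and 15 lay within 0.26 of day 0 replicate 1, and only days 4, 7 and 20 stood clearly above. The log2 difference between day 20 and day 0 was 1.82 (standard error 0.42, 95% interval 0.78 to 2.85, adjusted p = 0.0537), or 1.22 without day 20 replicate 1 (adjusted p = 0.0715), and that between day 10 and day 0 was 0.45 (interval -0.59 to 1.48). The 2 other probe sets of C2 passed on day 20, with 2.47 (adjusted p = 0.0343) and 2.37 (adjusted p = 0.0401), so that the outcome for C2 depends on the probe set. The probe set shared by C4a and C4b, whose C4 product C2 binds, measured 7.14 and 7.04 on day 0, 10.05 on day 4, 10.34 on day 7, 8.99 and 8.84 on day 10, 8.39 on day 15 and 12.31 and 9.14 on day 20. Its day 20 arrays differed by 3.17, the widest gap between duplicates among the 8 probe sets, and the log2 difference between day 20 and day 0 of 3.63 did not pass (standard error 0.95, adjusted p = 0.0734). With 1 array left out, it was 2.05 without day 20 replicate 1 (adjusted p = 0.0112) and 5.22 without day 20 replicate 2 (adjusted p = 0.0015), as the spread was then smaller. C4a is the sex-limited protein gene of mice, and the signals of C4a and C4b cannot be told apart at this probe set.

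The C3 probe set had the largest differences. It measured 6.13 and 5.67 on day 0, 11.24 on day 4, 11.56 on day 7, 11.02 and 10.58 on day 10, 10.16 on day 15 and 13.65 and 11.87 on day 20. Each graft array was at least 4.03 above both day 0 arrays, day 15 was the lowest graft and day 20 replicate 1 the highest. The probe set rose by day 4 (5.34, adjusted p = 0.0441), day 7 (5.66, adjusted p = 0.0268), day 10 (4.90, standard error 0.58, 29.9-fold, adjusted p = 0.0138), day 15 (4.26, adjusted p = 0.0454) and day 20 (6.86, standard error 0.58, 116-fold, adjusted p = 0.0040). The day 20 call held under all 14 alternatives run for it. The difference without day 20 replicate 1 was 5.97, 62.9-fold (adjusted p = 0.0069). The calls of days 4, 7, 10 and 15 ended without any 1 of the day 0 or day 10 arrays. Far fewer of all probe sets were called higher on these days in the same settings. The C3 difference then stayed at 5.12 to 5.57 on day 4 and 5.43 to 5.88 on day 7. It was 4.67 to 5.13 on day 10 and 4.03 to 4.48 on day 15.

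Cfb (1417314_at) encodes factor B, the counterpart of C2 in the alternative pathway. It measured 6.04 and 5.78 on day 0, 8.79 on day 4, 8.49 on day 7, 7.45 and 7.53 on day 10, 6.39 on day 15 and 10.54 and 8.06 on day 20. Day 15 came close to day 0, and day 20 replicate 1 stood 1.75 above the next highest array. The log2 difference between day 20 and day 0 was 3.39 (standard error 0.75, 10.5-fold, adjusted p = 0.0493). On day 20 replicate 2 alone it was 2.15, 4.45-fold, and passed (adjusted p = 0.0123). The differences of 2.87 on day 4, 2.57 on day 7 and 1.58 on day 10 did not pass (adjusted p = 0.351, 0.314 and 0.308), and that of day 15 was 0.48 (interval -1.80 to 2.76).

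Serping1 (1416625_at), the regulator among the members, measured 10.73 and 10.71 on day 0, 12.40 on day 4, 13.05 on day 7, 12.22 and 12.28 on day 10, 12.14 on day 15 and 13.32 and 12.49 on day 20. Its duplicates of days 0 and 10 differed by 0.02 and 0.06, the day 0 ovaries were lowest, and day 20 replicate 1 and day 7 were highest. The log2 difference from day 0 was 2.33 on day 7 (standard error 0.35, adjusted p = 0.0445), 1.53 on day 10 (standard error 0.29, adjusted p = 0.0463) and 2.19 on day 20 (standard error 0.29, 4.56-fold, adjusted p = 0.0125). On day 4 it was 1.69 and on day 15 1.42, and neither passed (adjusted p = 0.139 and 0.113). Without day 20 replicate 1 the day 20 difference was 1.77 (adjusted p = 0.0116).

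**Figure D2:**
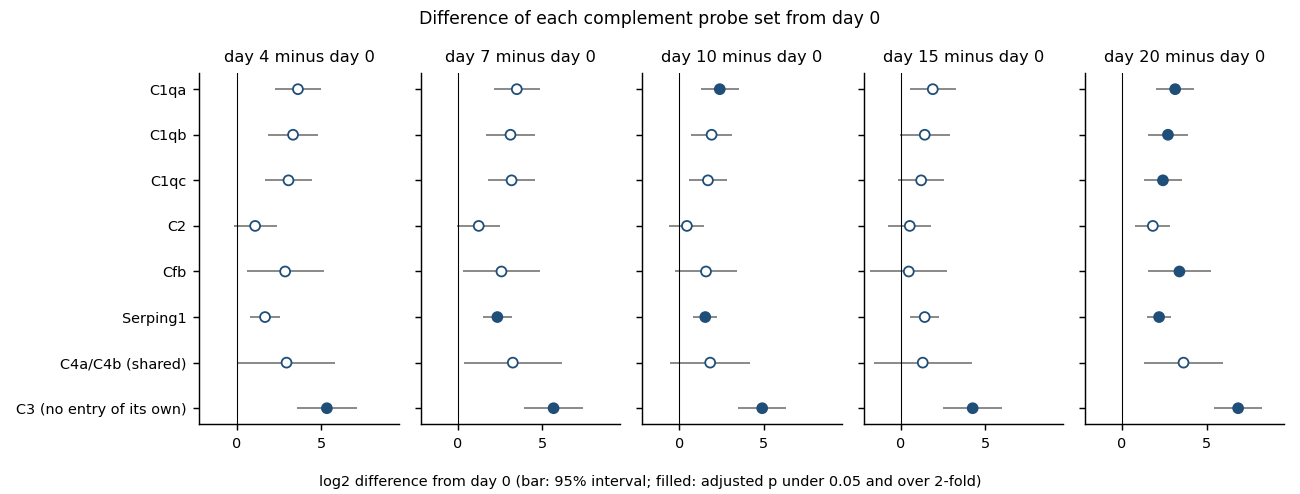
Log2 difference of each complement probe set from day 0 (horizontal axis, points with 95% intervals), with a panel for each graft day in order and filled points for an adjusted p under 0.05 and over 2-fold. The C3 point is filled in each panel and lies farthest to the right, at 6.86 on day 20, and the C2 and C4a/C4b points are open in each panel.

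The graft days were also compared with each other. Between days 20 and 10, all 6 members were higher on day 20 by 0.65 to 1.81 on the log2 scale, but 0 passed the test and 1 (C2) had an unadjusted p under 0.05. Over all probe sets 1 was called higher (0.00222%), and 2253 had an unadjusted p under 0.05. The intervals of the difference ran from -0.38 to 1.87 for C1qa, from -0.05 to 3.67 for Cfb and from -0.06 to 1.36 for Serping1, and the C1qa and C1qc values of the 2 days overlapped. Without day 20 replicate 2, with only the array that carries kidney genes left for day 20, 3 members passed (C2, Cfb and Serping1), with Cfb at 3.05 (adjusted p = 0.00585), and 1059 of the 45101 probe sets were called higher under that setting. Without day 20 replicate 1, the differences from day 10 were 0.12 for C1qa, 0.58 for Cfb, 0.23 for Serping1 and 0.23 for the C4a and C4b probe set. Between days 10 and 4, all 6 members were lower on day 10, by 0.15 for Serping1 and by 0.65 to 1.43 for the others, and 0 passed by limma, as did 0.0% of all probe sets (0 members and 2942 of all probe sets had an unadjusted p under 0.05). The C1qa interval of that difference ran from -2.62 to 0.14, so that the test did not separate days 10 and 4 for these members.

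The day order thus had a common shape among the members. The day means of C1qa and C1qb ran from high to low as days 4, 7, 20, 10, 15 and 0, and those of C1qc alike but with day 7 before day 4. The means of C2, Cfb, C3 and the C4a and C4b probe set were highest on day 20, and that of Serping1 was highest on day 7 and next on day 20. On day 20 replicate 2 alone only the C3 probe set stayed highest (11.87, against 11.56 on day 7), whereas Cfb (8.06) and the C4a and C4b probe set (9.14) were lower than on days 4 and 7 and C2 (9.35) was level with day 7 (9.37). Day 15 was the lowest graft day for each probe set except C2, for which day 10 was 0.09 lower. Among the graft days, only days 20 and 10 and days 10 and 4 were compared by test, and neither pair was separated for any of the 6 members.

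Of the other complement genes on the lists, 41 of 50 had a probe set of their own. Of these 41, 5 rose by day 4, 6 by day 7, 8 by day 10, 7 by day 15 and 9 by day 20, and 1 fell, on day 20. Of all probe sets, 0.774%, 1.28%, 2.87%, 2.0% and 4.52% were called higher on these days, and 1396 of 45101 lower on day 20. The counts of list genes were not taken again without day 20 replicate 1. Their median difference from day 0 was 0.22 on day 10 and 0.39 on day 20. In the classical and lectin group, C1s1, which encodes the protease C1s, measured between 10.58 and 11.82 on the grafts, against 7.51 and 7.74 on day 0, without overlap. Its log2 difference from day 0 was 2.998 on day 10 (standard error 0.18, adjusted p = 0.0034) and 4.05 on day 20 (standard error 0.18, adjusted p = 0.0012), and the day 20 call held under all 14 alternatives. C1ra, the gene of the protease C1r, rose by 1.49 on day 10 (adjusted p = 0.0248) and 2.10 on day 20 (adjusted p = 0.0066). C1ra measured 10.27 on day 4, 10.19 and 10.10 on day 10 and 10.25 on day 15, and C1s1 10.58, 10.61 and 10.64, and 10.72. Both were thus level between day 4 and days 10 and 15, on which the C1q genes were lower than on day 4. On days 7 and 20 both were higher than on day 4. C1ra measured 10.68 on day 7 and 11.01 and 10.49 on day 20, and C1s1 11.34, and 11.82 and 11.52. Mbl2, which encodes a mannose-binding lectin, was close to background on day 0 (4.30 and 4.80) and day 4 (4.34) and measured 6.65 and 8.28 on day 10, 8.76 on day 15 and 8.75 and 9.13 on day 20 (day 20 minus day 0 4.39, adjusted p = 0.0103, a size that is uncertain because of the low day 0 values). Colec11, the gene of the collectin CL-K1, likewise rose by day 10 (3.13, adjusted p = 0.0178) and day 20 (2.82, adjusted p = 0.0161). Chosen after their values were seen, Fcna, a ficolin gene, passed on day 4 only (2.93, adjusted p = 0.045), and Colec12, a scavenger receptor collectin gene, was the 1 gene that fell, on day 20 (-1.20, adjusted p = 0.0227, and -0.98 without day 20 replicate 1).

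In the terminal group, 0 of the 6 measured genes of the membrane attack pore passed on any day by limma (Hc, which encodes C5, was 1.20 above day 0 on day 20 with 4.52 on replicate 1 and 6.87 on replicate 2). On each array between 1 and 3 of these 6 genes were under 4.82, the 25th percentile over all values. Differences of genes that close to background are understated, so that a change in them could be missed. Among the soluble regulators, Cfhr2, a factor H related gene, rose by day 10 (1.98, adjusted p = 0.0308) and day 20 (1.84, adjusted p = 0.0251), from day 0 values of 4.37 and 4.86 that lie close to background, and Vtn, which encodes vitronectin, passed on day 15 only (2.14, adjusted p = 0.0358). Among the membrane regulators, Cd55, which encodes decay-accelerating factor, the protein that takes C3 convertases apart, rose alone among 7. It measured 6.79 and 7.25 on day 0, 8.53 on day 4, 9.15 on day 7 and between 9.20 and 9.45 on the 5 later arrays, and the day 20 difference of 2.35 (standard error 0.20, adjusted p = 0.0041) held under all 14 alternatives. Cd46, Cd59a and Cr1l, other membrane regulators, differed from day 0 on day 20 by -0.09, 0.51 and 0.15.

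Among 9 receptor genes, Itgb2, the integrin chain shared by complement receptors 3 and 4, rose on days 4, 7, 10 and 20 (4.18 on day 20, adjusted p = 0.0066, and 3.48 without day 20 replicate 1). C3ar1, the receptor of the C3a fragment, rose by day 4 (2.73, adjusted p = 0.0232), day 7 (1.84, adjusted p = 0.0447) and day 20 (1.41, adjusted p = 0.0214, a call that ended without day 20 replicate 1 at an adjusted p of 0.0619). Vsig4, a macrophage receptor for C3 fragments, measured 4.29 and 4.13 on day 0, 7.77 on day 4, 7.61 on day 7, 5.03 and 5.03 on day 10, 4.66 on day 15 and 4.96 and 5.54 on day 20. It was thus high on the day 4 and day 7 arrays (3.56 and 3.40 above day 0, adjusted p = 0.0154 and 0.0124), and its day 20 call (1.04, adjusted p = 0.0477) ended under 11 of 13 alternatives. Cd93, first described as a C1q receptor, rose by day 10 (1.49, adjusted p = 0.0327) and day 15 (1.75, adjusted p = 0.048). Apart from the day 20 calls of C1s1 and Cd55, each call of a named gene in these groups ended when at least 1 array of day 0, 10 or 20 was left out.

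**Figure D3:**
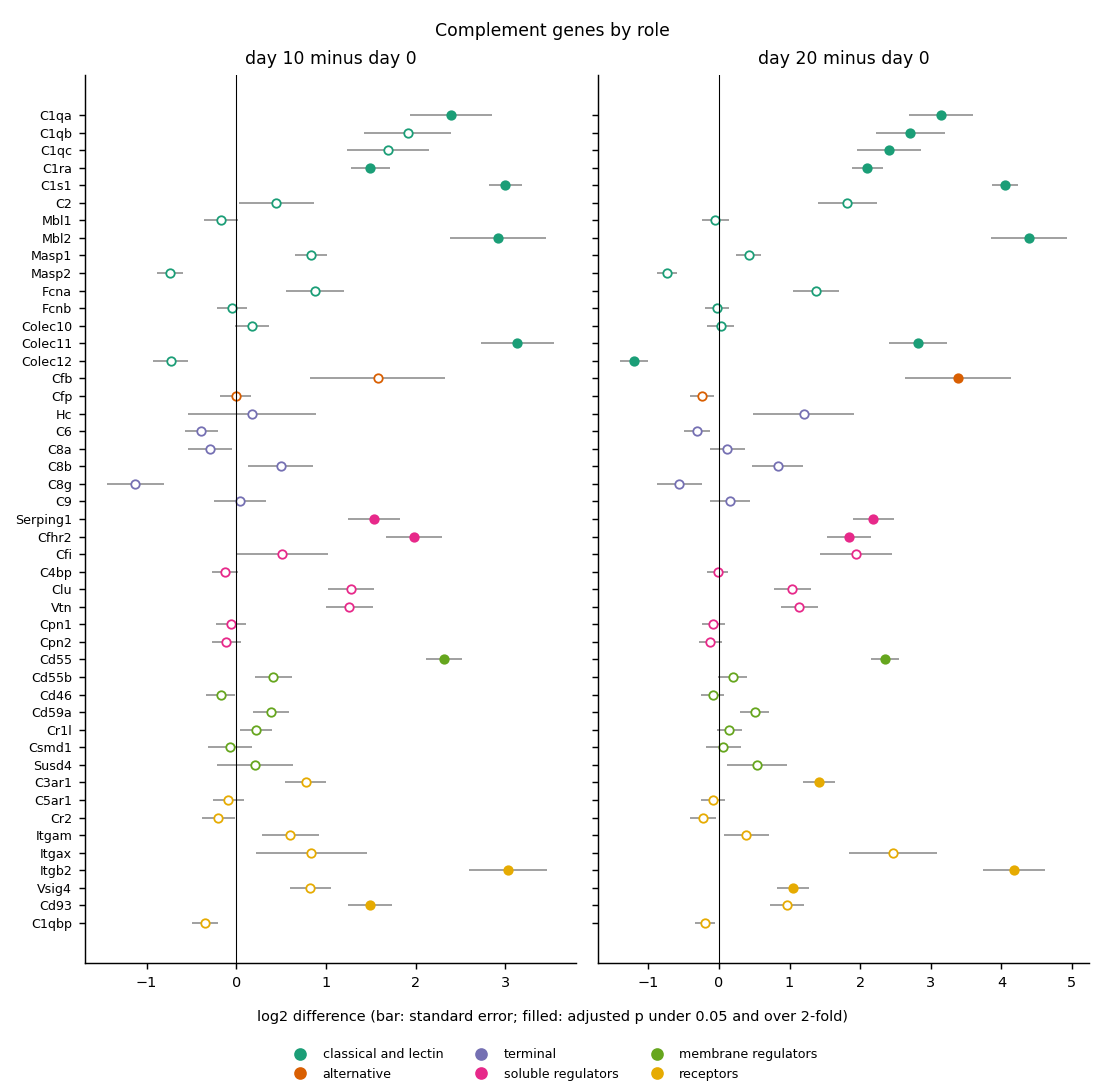
Log2 difference from day 0 on day 10 (left) and day 20 (right) of the members and other complement genes with a probe set of their own, grouped by role in colour, with bars for the standard error and filled points for an adjusted p under 0.05 and over 2-fold. On day 20 the filled points of C1s1, Mbl2 and Itgb2 lie beyond 4, and the terminal genes have open points only.

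Marker lists of cell types were read beside the members. All 15 genes of the macrophage list were above both day 0 arrays on each of the 7 graft arrays, and 10 passed on day 4, 8 on day 7, 11 on day 10, 4 on day 15 and 15 on day 20. The share of all probe sets called higher was 0.774%, 1.28%, 2.87%, 2.0% and 4.52% on these days. The summed linear intensity of the list was between 13240 (day 15) and 44857 (day 4) on the grafts, against 2105 and 3434 on the day 0 arrays, and 1 of the 15 genes, Cd163, was under 4.82, the 25th percentile over all values, on day 0. The mean difference of the C1q genes from day 0 was 3.35 on day 4, 3.25 on day 7, 1.78 and 2.21 on day 10, 1.51 on day 15 and 3.32 and 2.19 on day 20. The median difference of the macrophage list was 3.32, 2.81, 1.93 and 2.09, 1.505, and 3.24 and 2.43 on the same arrays. The C1q mean and the macrophage median thus stayed within 0.44 of each other on all 9 arrays, the day 0 replicates included. The part of macrophage number in the member values was not tested.

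The Y-linked list, which can come from cells of the XY host, had 3 of its 4 genes measured, all 3 under the 25th percentile on day 0. Its median difference from day 0 was 2.30 on day 4, 1.95 on day 7, 0.90 and 0.92 on day 10, 1.02 on day 15 and 2.94 and 1.43 on day 20. It was therefore highest on the arrays on which the C1q genes were highest, and its part in the result was not tested. Fibroblast genes of the stroma stayed nearly level among the grafts, at 2.23 to 2.71 above day 0, and the ovarian somatic list was below day 0 on each graft array, by -0.25 on day 4 and by -2.25 and -1.48 on day 20. Over the 9 arrays, which share their RNA between genes, Pearson's r with the macrophage median was 0.97 to 0.99 for the C1q genes, 0.77 for C2, 0.88 for Cfb, 0.92 for Serping1 and 0.92 for the C3 probe set. Pearson's r with the fibroblast median was 0.86 to 0.93 for the C1q genes, 0.69 for C2, 0.75 for Cfb and 0.94 for Serping1. It was 0.96 for the C3 probe set and 0.98 for C1s1. With the Y-linked median it was 0.92 to 0.93 for the C1q genes, 0.92 for C2, 0.96 for Cfb and 0.90 for Serping1. For the C3 probe set r with the Y-linked median was 0.88. The C4a and C4b probe set had 0.89 with the macrophage, 0.79 with the fibroblast and 0.97 with the Y-linked median.

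Kidney genes were highest on day 20 replicate 1. The summed linear intensity of the 12 proximal tubule genes was 723 and 917 on day 0, 881 on day 4, 956 on day 7, 1049 and 2496 on day 10, 2245 on day 15 and 56995 and 1891 on day 20. All 12 genes were above both day 0 arrays on day 20 replicate 1, 9 were on day 10 replicate 2, 5 on day 15 and between 1 and 3 on the other grafts. Miox, a kidney enzyme gene chosen after its values were seen, measured 5.43 and 5.58 on day 0, 7.96 and 10.19 on day 10, 10.00 on day 15 and 13.71 and 9.86 on day 20. On day 20 replicate 1 the C4a and C4b probe set was 3.17, Cfb 2.47, the C3 probe set 1.78, C1qa 1.25, C2 1.20, C1qb 1.07, C1qc 1.06 and Serping1 0.84 above day 20 replicate 2. The part of kidney tissue in these values was not tested. Of 8 hepatocyte genes measured, Alb, Apoa2 and Afp were called lower on days 10 and 20, and Hp higher. Afp was called lower on days 4, 7 and 15 as well. Of all 45101 probe sets, 599 were called lower on day 10 and 1396 on day 20, and 1293 and 2037 higher. The median difference of the list from day 0 was between -0.39 and -0.21 on the grafts.

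**Figure D4:**
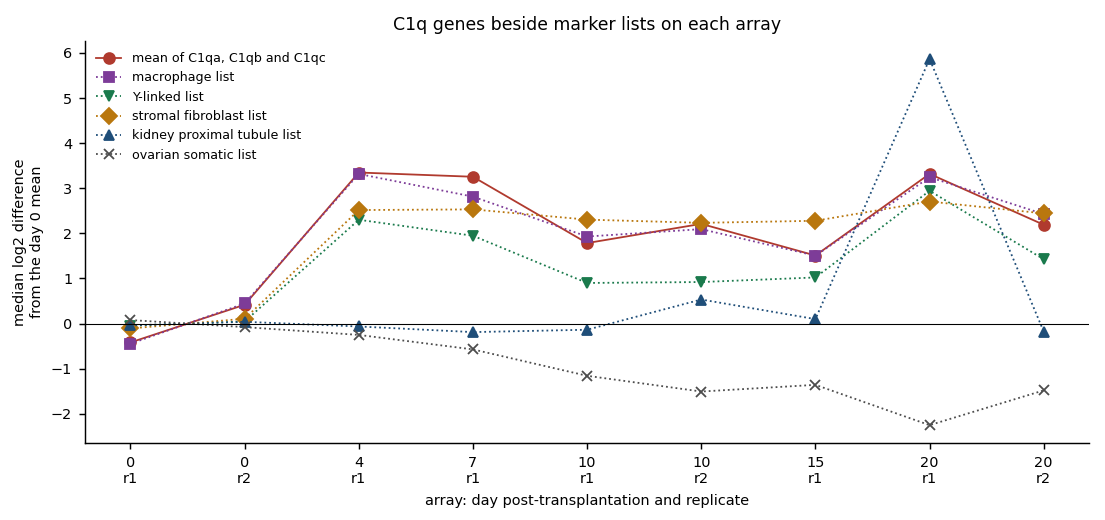
Median log2 difference of marker lists, and mean difference of C1qa, C1qb and C1qc, from the day 0 mean (vertical axis) on each of the 9 arrays in day order (r1 and r2 are the replicates). The C1q and macrophage lines stay within 0.44 of each other, and the kidney proximal tubule line stands at 5.86 on day 20 replicate 1.

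Finally, 6594 genes with a range of at least 1 on the log2 scale were ranked by Pearson's r with each member over the 9 arrays, as a description without a test. The genes most like C1qa were Ctsc, Ccl6 and Ly86 (r of 0.989 to 0.994), those most like C1qb were Ly86, Fcer1g and Adgre1 (0.993 to 0.995), and those most like C1qc were Coro1a, Tnfaip8l2 and Adgre1 (0.98 to 0.99). Adgre1 encodes an adhesion receptor used as a macrophage marker and Fcer1g a chain of Fc receptors, and both are on the macrophage list. Serping1 was most like H2-Aa, Ifi44l and Psmb8 (0.99 each), of which Ifi44l and Psmb8 are interferon-induced genes. The genes most like C2 were Itgal, Tnfaip8 and Gpr18 (0.96 to 0.97), and those most like Cfb were Lipa, Fgd2 and Slpi (0.98 to 0.99). The C4a and C4b probe set was most like Tlr2, Gpr18 and Smpdl3a (0.99 each), and the C3 probe set was most like Dram1, Ifi44l and Btla (0.99 each).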

How the data were processed

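RNA of the 9 pools had been labelled with either of 2 kits and hybridised to Affymetrix arrays, and the kit of each array is not stated. The authors deposited log2 intensities after robust multiarray analysis (RMA), which subtracts background, makes the arrays alike by quantiles and reduces each probe set to 1 value. The software version of RMA is not stated. These values understate differences of genes close to background and come without depth or a detection call, so that the precision rests on how many arrays there are.

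All 45101 probe sets were fitted with a mean per day by limma 3.58.1 (R 4.3.3; lmFit followed by eBayes, 3 residual and 2.69 prior degrees of freedom). After Benjamini-Hochberg adjustment over all probe sets, a probe set was called at an adjusted p under 0.05 and over 2-fold. The test had been tried on simulated data. The annotation gave 1 gene to 34958 probe sets, several genes to 932 and no entry to 9211. The test was planned for 8 members, of which 6 had a probe set annotated to them alone. The members, lists and rules were chosen with earlier results of these data known. The rule for named genes took all members, the complement genes past the test on day 10 or 20 with at most 4 in each role group, and the 3 genes most like each member by Pearson's r. Fcna, Colec12 and Miox were chosen outside it and are marked so in the text. Of the other complement genes, Vtn, Hc, Cd46, Cd59a and Cr1l were also named outside it. The lists were classical and lectin, alternative, terminal, soluble regulator, membrane regulator and receptor genes of complement, and macrophage, kidney proximal tubule, kidney loop and distal tubule, hepatocyte, stromal fibroblast, Y-linked and ovarian somatic genes.

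Results were also computed with array quality weights, with an intensity trend, after renewed quantile normalization, after centring on array medians, with a filter at the median mean, with low values raised to 4.82 (the 25th percentile) and with each array of days 0, 10 and 20 left out. Comparisons among days 0, 10 and 20 were also fitted from 2 days alone and with a replicate block, C1qb and C2 were also read at their other probe sets, and the counts of members were also taken at a 1.5-fold threshold. Other software was Python 3.11.15 with matplotlib 3.10.9, numpy 2.4.6 and pandas 2.3.3.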

Additional observations from a re-analysis of the deposited data

How the results depend on the processing

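Of 1210 recomputed differences of members and other named complement genes, none changed sign. In these, 904 kept their side of the threshold, 245 lost a call and 61 gained one. Many of the settings leave the compared day means as they are, so that the sign could not change in them. The other named genes entered only where they had been called with all arrays, so that they could lose a call but not gain one. The number of the 6 members called against day 0, in the order of the graft days from 4 to 20, was 0, 1, 2, 0 and 5, and it was 4, 4, 4, 1 and 4 with array quality weights, 1, 3, 2, 0 and 6 with an intensity trend and 3, 4, 2, 0 and 6 with only probe sets above the median mean. It was 0 on each day when values below 4.82 were raised to that level. The lowest value of the 6 members was 5.78, for Cfb, so that their differences stayed the same under this setting. Only the estimate of the spread and the adjustment over all probe sets differed. With the arrays centred on their medians, 2 were called on day 7, and with renewed quantile normalization 1 on day 10. With only the arrays of the 2 days, 1 was called on day 20. When arrays were left out one at a time, the counts ran from 0 to 3 on day 4, from 0 to 4 on day 7, from 0 to 3 on day 10, from 0 to 1 on day 15 and from 0 to 6 on day 20, and from 0 to 3 between days 20 and 10. A 1.5-fold threshold gave the counts of the 2-fold threshold, and other probe sets moved only the day 20 count, from 5 to 6 for either other probe set of C2. The number of all probe sets called higher shifted as well. With all arrays it was 349, 579, 1293, 900 and 2037 of 45101, in the order of the graft days. It was 770, 1084, 2034, 1555 and 1511 with array quality weights and 435, 685, 1362, 983 and 2147 with an intensity trend. With the median filter it was 483, 752, 1413, 1104 and 1886 of 22550. With low values raised it was 89, 141, 295, 180 and 606, and with only the arrays of the 2 days 1084 on day 20. The cause of these shifts was not tested. Centring on array medians moved the median of all probe sets on day 20 from -0.11 to -0.18.

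The labels give replicate numbers 1 and 2 to days 0, 10 and 20 but do not say whether equal numbers share litters or hosts. The differences between the duplicates correlated at r of -0.158 for days 0 and 10, 0.154 for days 0 and 20 and -0.128 for days 10 and 20. Such values cannot show whether the numbers pair the samples, as the day 20 difference also holds the kidney genes of replicate 1. With a replicate block over the arrays of these 3 days, 0 members were called on day 10 and 3 on day 20 against day 0. Between days 20 and 10, 0 were called. Of all 45101 probe sets, 989 were called higher on day 10 and 1854 on day 20 in that fit. No paired analysis was possible because of a lone array for the comparisons of days 4, 7 and 15.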
